A study of Mus musculus with 8 samples.

Results

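The genes described here encode the activating receptor NKG2D (Klrk1), 2 granzymes (Gzma and Gzmb), perforin (Prf1), the granule membrane protein Nkg7, and a defining receptor of natural killer (NK) cells and of T cells (Ncr1 and Cd3e). They were chosen by name, 7 of the 30284 genes in the files, with their values in these libraries already known, so their levels are a description and carry no test. Of the 7, 6 reached 1 TPM (transcript abundance per length, scaled to a fixed sum in each library) in at least 2 libraries, as did 13009 genes in all. Ncr1 did not, and Gzmb and Prf1 reached it only in treated groups.

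The 8 RNA sequencing libraries, 2 for each of 4 groups, were made from total RNA of macrophages, and the male C57BL6 mice were 7 weeks old and had been stimulated in the peritoneal cavity. The saline and LPS groups were taken 4 h after saline or lipopolysaccharide (LPS, the bacterial membrane component sensed by TLR4). The IFNb group was taken 4 h after interferon beta, a type I interferon, and the LPS+IFNb group received IFNb for 4 h and then LPS for 4 h. All mice were of 1 wild-type background, and no group received IFNb followed by saline, so in LPS+IFNb the time since IFNb differs from that in IFNb alone. The sources used here give neither the doses nor any sort of the cells, nor whether each library came from its own animal. P-values therefore measure the spread between libraries only, and that spread may be technical. Sequencing depth is unknown, because TPM keeps no record of read number. Lyz2 (10160 to 17557 TPM), Cd68 (2694 to 3367 TPM) and the macrophage receptor Adgre1 (189 to 307 TPM) were high in every library. Gata6 (0.862 to 2.11 TPM) and Timd4 (0.427 to 3.37 TPM), which mark large resident peritoneal macrophages, were low. Other genes listed for peritoneal macrophages were higher in saline than these 2, with means of 17.9 TPM for Icam2 and 11.7 TPM for Alox15. The share of resident macrophages in the libraries was not tested.

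NKG2D is a lectin-like receptor of NK cells and of some T cells. It reads MHC class I-like proteins that stressed or infected cells display, and it signals through the small adaptors DAP10 and DAP12, the latter also used by macrophage receptors. Cytotoxic cells then release granules in which perforin opens the target membrane and granzymes, a family of serine proteases, cut proteins inside. NK cells and T cells live in the peritoneal cavity beside macrophages, and NK cells and some T cells express Klrk1 and granule genes, which is why Ncr1 and Cd3e belong in the same account.

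The reference windows at the RefSeq starts of 3 genes (GRCm38.p6, 250 bases before to 50 after the start, 5′ to 3′ on the gene's strand) are shown because these genes had the widest differences between groups. Capitals mark matches to 3 motifs searched on both strands. They are the core of the interferon-stimulated response element (GAAA, any 2 bases, GAAA), the composite element of ETS and IRF factors (GGAA, any 2 bases, GAAA), and the palindrome bound by STAT dimers (TTC, any 3 bases, GAA), which reads alike on both strands. The first window, chr6:129623815-129624114 on the minus strand, belongs to Klrk1. The window of Gzma is chr13:113100932-113101231 and that of Gzmb is chr14:56262285-56262584, both on the minus strand.
Klrk1: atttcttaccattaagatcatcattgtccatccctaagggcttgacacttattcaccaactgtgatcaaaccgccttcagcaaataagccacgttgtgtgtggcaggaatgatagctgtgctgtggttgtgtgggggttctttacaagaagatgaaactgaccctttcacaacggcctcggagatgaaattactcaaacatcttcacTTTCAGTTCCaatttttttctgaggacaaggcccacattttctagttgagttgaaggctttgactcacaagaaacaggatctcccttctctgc
Gzma: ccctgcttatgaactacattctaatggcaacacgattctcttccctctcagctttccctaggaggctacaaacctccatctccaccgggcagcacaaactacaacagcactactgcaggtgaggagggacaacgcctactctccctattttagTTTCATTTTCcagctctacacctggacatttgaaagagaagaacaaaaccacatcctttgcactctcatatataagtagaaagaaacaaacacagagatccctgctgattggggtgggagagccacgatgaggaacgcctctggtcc
Gzmb: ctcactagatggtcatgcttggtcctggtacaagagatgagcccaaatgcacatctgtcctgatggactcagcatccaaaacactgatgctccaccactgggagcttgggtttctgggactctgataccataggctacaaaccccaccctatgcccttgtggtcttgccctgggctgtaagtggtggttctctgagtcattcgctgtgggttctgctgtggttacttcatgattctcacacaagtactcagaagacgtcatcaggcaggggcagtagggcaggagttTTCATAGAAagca

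The Klrk1 window held 1 match to the ETS and IRF composite at positions -43 to -34 from the start, written in the window as TTTCAGTTCC. The Gzma window held 1 match to the response element core at -97 to -88, and the Gzmb window held 1 match to the STAT palindrome at 37 to 45, past the start. No match overlapped another. These motifs occurred in 2.72%, 3.44% and 8.3% of 32851 windows of the same length, and an NF-kB motif, which none of the 7 genes' windows held, in 4.51%. A further STAT palindrome stood at -220 to -212 of the Nkg7 window, and the windows of Prf1, Ncr1 and Cd3e held none of the motifs. A match is a run of letters, not a measured site. The Klrk1 window sits at the start of the transcript Klrk1-205 (129623864), while Klrk1-201, which carried most of the signal, starts at 129622772, outside it. The Gzmb window lies wholly before the GENCODE start at 56262260.

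Klrk1 (chr6:129610323-129623864, minus strand, mm10) was far higher in both groups that received IFNb. It stood at 1.81 and 3.34 TPM in saline, 6.31 and 4.61 TPM in LPS, 79.3 and 98.4 TPM in IFNb, and 57.1 and 69.4 TPM in LPS+IFNb. The order was therefore saline (2.58 ± 1.08 TPM, SD, n = 2), LPS (5.46 ± 1.2), LPS+IFNb (63.2 ± 8.67) and IFNb (88.9 ± 13.5), and the libraries of no 2 groups overlapped. The mean with IFNb was 34.5-fold that of saline, a difference of 4.68 ± 0.25 in log2(TPM + 1) with the standard error of the model. After LPS alone the mean was 2.12-fold that of saline, a difference of 0.87 ± 0.25.

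With LPS given after IFNb, Klrk1 was 11.6-fold the level in LPS alone (3.32 ± 0.25) and 0.712-fold the level in IFNb alone (-0.48 ± 0.25). The difference between LPS+IFNb and IFNb was -0.16 once libraries were rescaled by median ratio, which is smaller than its standard error, so these 2 neighbours in the order did not differ beyond their spread on that scale. That rescaling matters for every comparison here: the median tested gene lay at -0.38 for LPS and -0.37 for IFNb against saline, and at -0.22 and -0.30 for LPS+IFNb against LPS and against IFNb, and rescaling moved these medians by 0.40, 0.34, 0.20 and 0.28. Rescaled, Klrk1 differed by 1.20, 4.94, 3.58 and -0.16 in the same order.

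**Figure D1:**
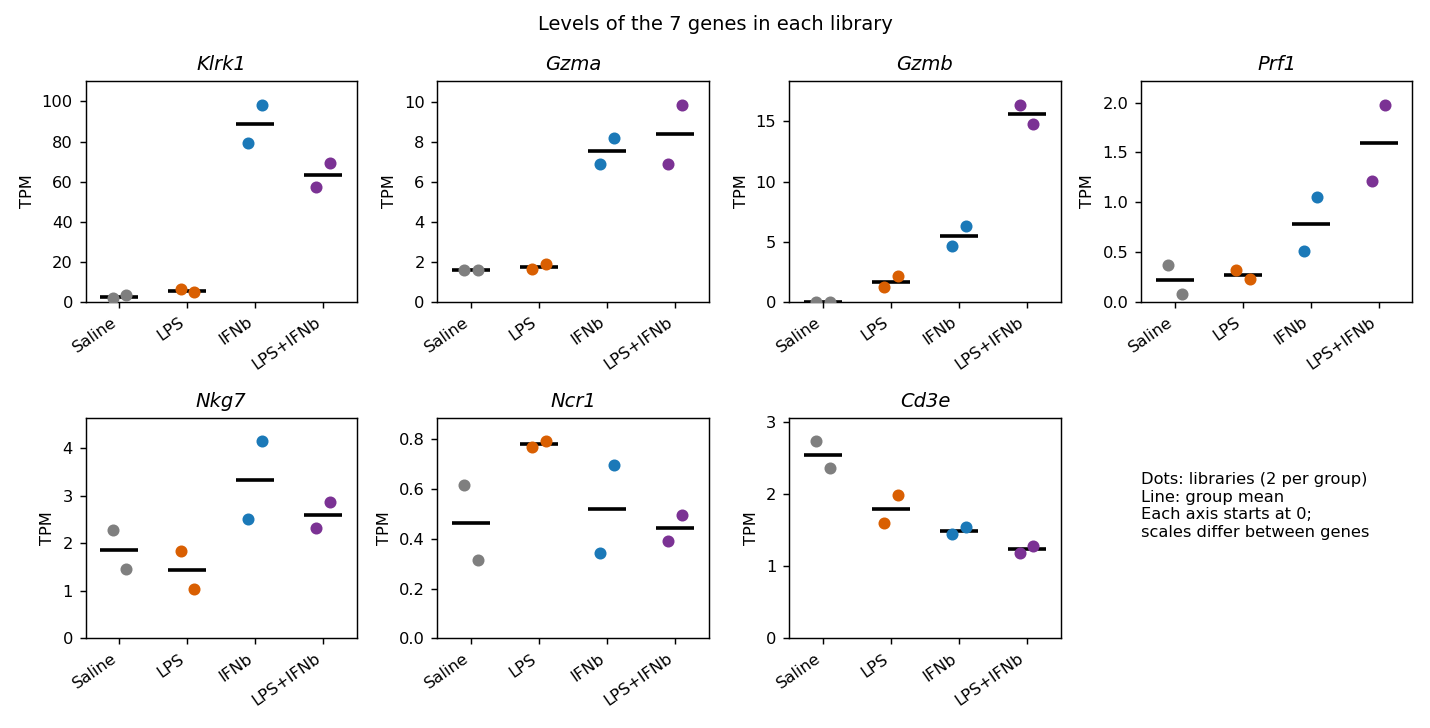
TPM (vertical axes, each from 0 and each with its own scale) of the 7 genes in the 4 groups. Dots are libraries, 2 per group, and lines are group means. Klrk1 lies between 57.1 and 98.4 TPM in all 4 libraries that received IFNb and at or below 6.31 TPM in the others, while Ncr1 stays at or below 0.791 TPM throughout.

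Klrk1 has 5 annotated transcripts in the files, of which 3 are protein coding. Mouse NKG2D is known for a long and a short form that differ at the amino end and in which adaptors they can use. Klrk1-201, with 232 codons in 8 exons, stood at 0.985 and 1.85 TPM in saline, 3.83 and 3.48 in LPS, 57.4 and 69.6 in IFNb, and 44.3 and 54.3 in LPS+IFNb. Klrk1-202, with 219 codons, stood at 0.518 and 0.388 TPM in saline, 1.11 and 0.703 in LPS, 17.9 and 19.1 in IFNb, and 9.98 and 11 in LPS+IFNb. Both coding transcripts were thus high in the same libraries, without overlap between the groups with and without IFNb.

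The share of the gene's TPM assigned to Klrk1-201 was 54.9% in saline, 67% in LPS, 71.5% in IFNb and 77.9% in LPS+IFNb. Klrk1-202 took 17.6%, 16.6%, 20.8% and 16.6% in the same order. The 1182-base retained-intron transcript, without a coding frame, took 19.7% in saline and 10.1% in LPS, but 2.75% in IFNb and 2.99% in LPS+IFNb. In TPM it was still higher with IFNb (1.81 and 3.07) than in saline (0.307 and 0.71). Klrk1-205, with 225 codons, was at or near 0 in saline and LPS and at 1.5 to 2.49 TPM in the 4 libraries with IFNb. The transcripts overlap one another, so these shares are estimates by the authors' transcript assignment, and those in saline rest on values under 2 TPM.

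**Figure D2:**
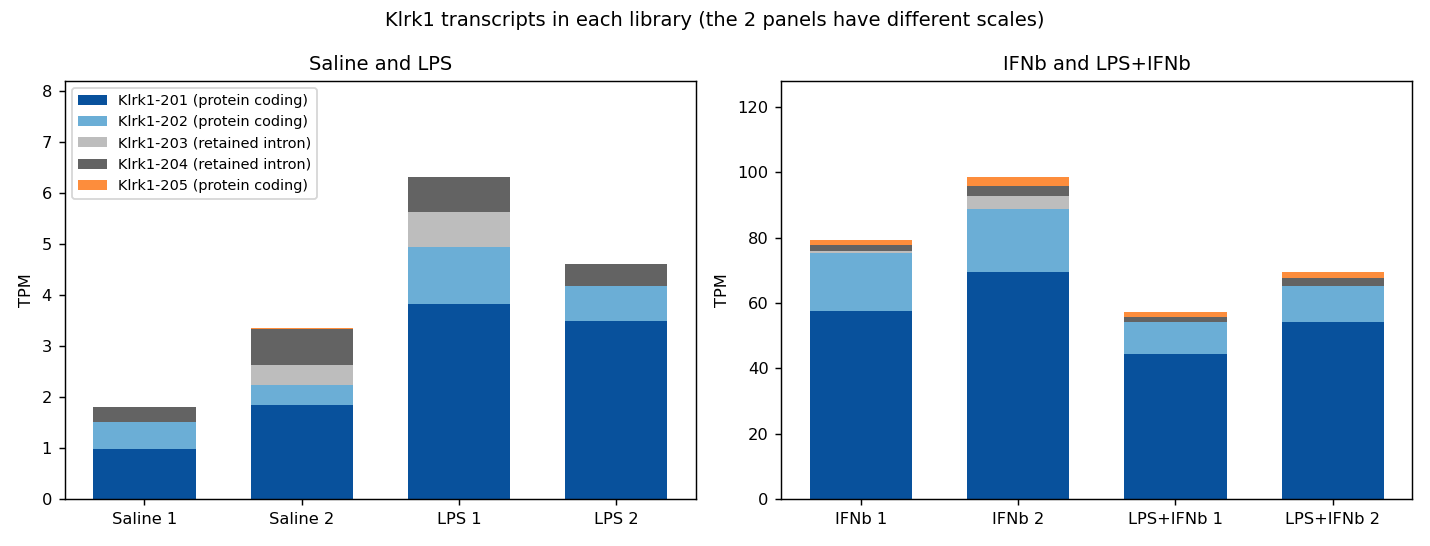
TPM (vertical axes, from 0, different scales) of the 5 Klrk1 transcripts, stacked, in each library (horizontal axes), with saline and LPS on the left and the groups with IFNb on the right. Klrk1-201 forms the largest part of every bar, from 54.4% in saline replicate 1 to 78.3% in LPS+IFNb replicate 2, and the retained-intron parts are a larger share of the low bars.

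Genes that are not among the 7 were tested with limma on log2(TPM + 1), with Benjamini-Hochberg adjustment over 13009 genes, and are called changed at an adjusted p under 0.05. Of those genes 12.8% were called higher and 41.3% lower in LPS against saline. The shares were 13% higher and 38.6% lower for IFNb against saline, 10.8% higher and 24.1% lower in LPS+IFNb against LPS, and 8.76% higher and 30.5% lower in LPS+IFNb against IFNb. Lower calls depend on the scaling: after rescaling by median ratio, 2604 genes were higher and 2157 lower in LPS against saline in place of 1664 and 5368, and 2328 and 1824 in IFNb against saline in place of 1697 and 5020. In LPS+IFNb against LPS the counts were 1881 and 1290 in place of 1400 and 3129, and in LPS+IFNb against IFNb they were 1673 and 1377 in place of 1140 and 3967. The lists below were set against these shares and against the medians of all tested genes given above. The filter on low values was applied again to the rescaled values, so the tested genes of a list can differ there. A call can then be missing after rescaling because the gene was not tested.

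The adaptors of NKG2D were not higher in the groups in which the receptor was. Hcst, which encodes DAP10, stood at 54.1 and 53.5 TPM in saline, 47.1 and 37.9 in LPS, 47.5 and 44.3 in IFNb, and 37.1 and 34.9 in LPS+IFNb. It differed by -0.23 ± 0.12 in IFNb against saline (limma adjusted p = 0.157) and by -0.34 ± 0.12 in LPS against saline (limma adjusted p = 0.0488), and after rescaling by 0.16 (adjusted p = 0.475) and 0.11 (adjusted p = 0.596). Tyrobp, which encodes DAP12, ranged from 1362 to 2653 TPM and was lower with IFNb by -0.49 ± 0.14 (limma adjusted p = 0.0236), a call that rescaling ended (-0.09, adjusted p = 0.756). The ratio of Klrk1 to Hcst TPM was 0.0334 and 0.0625 in saline, 0.134 and 0.121 in LPS, 1.67 and 2.22 in IFNb, and 1.54 and 1.99 in LPS+IFNb. Receptor transcripts were therefore fewer than DAP10 transcripts in saline and LPS and more numerous in both groups with IFNb.

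Of the 17 adaptor and signalling genes of the NKG2D pathway, all tested, 2 rose and 6 fell with IFNb (median -0.28) and 3 rose and 7 fell with LPS (median -0.34). Rescaled, 4 were higher and 3 lower with IFNb, and 4 and 2 with LPS. Lcp2, the adaptor SLP-76, rose from 160 to 263 TPM with IFNb (0.72 ± 0.13, limma adjusted p = 0.00404) and to 991 TPM with LPS (2.63 ± 0.13, limma adjusted p = 1.84e-05). Pik3cd, a catalytic subunit of the kinase that DAP10 recruits, rose with IFNb from 30.2 to 63.6 TPM (1.10 ± 0.25, limma adjusted p = 0.0103). Plcg1 fell from 8.96 to 1.93 TPM (-1.73 ± 0.26, limma adjusted p = 0.00228) and Vav2 from 20.3 to 4.99 TPM (-1.78 ± 0.28, limma adjusted p = 0.0027), and both calls held after rescaling. The kinase gene Syk went opposite ways, from 125 to 65.8 TPM with IFNb (limma adjusted p = 0.00454) and to 246 TPM with LPS (limma adjusted p = 0.00308).

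Of these 17 genes, 3 rose and 7 fell in LPS+IFNb against LPS (median -0.27; 3 and 3 rescaled), and Vav1 had the lowest adjusted p among the rises, from 39 to 69.2 TPM (0.81 ± 0.12, limma adjusted p = 0.00361). Against IFNb alone, 3 rose and 2 fell (median -0.14; 5 and 1 rescaled), with Lcp2 going from 263 to 630 TPM (1.26 ± 0.13, limma adjusted p = 0.000867). The rises with IFNb were close, as a share of the list, to the share of all tested genes that rose.

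NKG2D ligands were low, and those called as deposited were higher in LPS+IFNb than in IFNb. Of 9 ligand genes 5 were matched and 4 tested, and none was called in LPS or IFNb against saline or in LPS+IFNb against LPS by limma (medians 0.46, -0.30 and -0.24). After rescaling, 3 of the 4 were higher with LPS: H60b by 0.85 (adjusted p = 0.0285), Ulbp1 by 0.85 (adjusted p = 0.0438) and Raet1d by 0.82 (adjusted p = 0.0108). Ulbp1, which encodes the ligand MULT1, stood at 5.54 and 4.9 TPM in saline, 9.69 and 5.93 in LPS, 5.48 and 5.48 in IFNb, and 8.28 and 12.5 in LPS+IFNb. It rose in LPS+IFNb against IFNb by 0.79 ± 0.26 (limma adjusted p = 0.0497), as did H60b, from 0.486 to 1.78 TPM (0.90 ± 0.27, limma adjusted p = 0.0375). Raet1 genes are near-identical copies whose reads can be divided among them, so Raet1d (3.42 to 6.88 TPM) and Raet1e (0.65 to 2.89 TPM) are uncertain.

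Gzmb (chr14:56258838-56262260, minus strand), which encodes granzyme B, a protease that activates caspases, was listed at 0 in both saline libraries. It stood at 1.19 and 2.17 TPM in LPS, 4.64 and 6.28 in IFNb, and 16.4 and 14.8 in LPS+IFNb, and no libraries of different groups overlapped. The order was saline, LPS (1.68 ± 0.689 TPM, SD, n = 2), IFNb (5.46 ± 1.16) and LPS+IFNb (15.6 ± 1.13). With saline at 0 no fold is given. The LPS+IFNb mean was 9.31-fold that of LPS (2.66 ± 0.22 in log2(TPM + 1)) and 2.87-fold that of IFNb (1.38 ± 0.22). Gzmb was thus higher when LPS followed IFNb, and the median-ratio scale left it so (1.68). Klrk1 was lower there as deposited (-0.48), but on that scale (-0.16) by less than its standard error as deposited.

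Gzma (chr13:113093825-113100981, minus strand) encodes granzyme A, a protease with trypsin-like specificity. It stood at 1.58 and 1.57 TPM in saline, 1.65 and 1.87 in LPS, 6.88 and 8.18 in IFNb, and 6.9 and 9.87 in LPS+IFNb. Both groups with IFNb were high and overlapped each other, and the groups without IFNb were low. The mean with IFNb was 4.78-fold that of saline (1.72 ± 0.19), and in LPS+IFNb it was 4.76-fold that of LPS (1.75 ± 0.19). LPS alone against saline (0.10 ± 0.19) and LPS+IFNb against IFNb (0.12 ± 0.19) differed by less than their standard errors, and the latter was -0.11 without LPS+IFNb replicate 2. After rescaling these 2 differences were 0.37 and 0.42.

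Prf1 (chr10:61297833-61304680, plus strand) encodes perforin and was low in every library. It stood at 0.364 and 0.0749 TPM in saline, 0.316 and 0.228 in LPS, 0.511 and 1.05 in IFNb, and 1.21 and 1.98 in LPS+IFNb. Only 3 libraries were above 1 TPM, all with IFNb. In log2(TPM + 1) it differed by 0.54 ± 0.26 in IFNb against saline, by 1.01 ± 0.26 in LPS+IFNb against LPS and by 0.54 ± 0.26 in LPS+IFNb against IFNb. The difference for LPS alone was 0.07 ± 0.26, with overlapping libraries. The groups rank as for Gzmb, but IFNb and LPS+IFNb are separated by less than the gap between the libraries of either.

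Per length, Gzmb transcripts outnumbered Prf1 transcripts in every treated library, by 3.78 to 13.5 times. The difference between the LPS effects after and without IFNb was -1.36 for Klrk1, 0.02 for Gzma and 0.48 for Prf1 in log2(TPM + 1), with the timing limit given above. It is not given for Gzmb, whose term for LPS against saline is set by the pseudocount (1.40 with 1 and 4.10 with 0.1). The value for Prf1 is also uncertain, since each of its terms has a standard error of 0.26 and depends on the pseudocount. LPS against saline was 0.07 with 1 and 0.37 with 0.1, and LPS+IFNb against IFNb was 0.54 and 0.98. Of the 8 other granzyme genes none passed the filter on low values. Gzmd, Gzmf and Gzmg were listed at 0 in all libraries. Gzmk, the neighbour of Gzma 70.6 kb away, reached at most 1.05 TPM (IFNb replicate 2), and Gzmc, 24.2 kb from Gzmb, at most 0.194 TPM. Granzyme genes resemble one another, so reads could be divided among them, and the part of this in the levels of Gzma and Gzmb was not tested.

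More genes for granule cargo, processing and release rose than fell with IFNb. Of 16, all tested, 7 rose and 3 fell with IFNb (median 0.22; 8 and 1 rescaled), and 4 rose and 9 fell with LPS (median -0.34; 5 and 2 rescaled). Many of them also serve lysosomes and secretion in macrophages. Ctsc encodes the cathepsin that activates granzymes by removing a short peptide. Its level was 144 and 131 TPM in saline, 389 and 333 in LPS, 651 and 843 in IFNb, and 711 and 852 in LPS+IFNb. Ctsc rose by 2.42 ± 0.16 with IFNb (limma adjusted p = 6.56e-05) and by 1.38 ± 0.16 with LPS (limma adjusted p = 0.00067).

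Stx11, a syntaxin of granule fusion, rose from 23.1 to 95.8 TPM with IFNb (2.00 ± 0.11, limma adjusted p = 2.78e-05), to 121 TPM with LPS (2.34 ± 0.11, limma adjusted p = 1.57e-05), and to 237 TPM in LPS+IFNb. Srgn, the proteoglycan serglycin that packs granzymes, rose mainly with LPS, from 387 to 1447 TPM (1.90 ± 0.19, limma adjusted p = 0.000384). Cst7, cystatin F, an inhibitor of granule cathepsins, was at 0.595 and 0.57 TPM in saline, 6.03 and 4.3 in LPS, 3.97 and 2.43 in IFNb, and 8.98 and 15.8 in LPS+IFNb, and it rose in all 4 comparisons. Its groups thus rank with LPS+IFNb on top, as those of Gzmb and Prf1 do. Mcoln1, a lysosomal cation channel, fell in all 4, from 109 to 54.5 TPM with IFNb (-0.99 ± 0.08, limma adjusted p = 0.000225), and after rescaling it was called lower against saline only (-0.60 with IFNb, -0.71 with LPS). Within the list 4 genes rose and 1 fell in LPS+IFNb against LPS (median 0.12; 5 and 0 rescaled), and against IFNb 3 rose and 6 fell (median -0.28; 3 and 0 rescaled).

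Inhibitors of granule proteases mostly rose. Of 7 serpin genes, all tested, 4 rose and 1 fell both with IFNb (median 0.85; 4 and 1 rescaled) and with LPS (median 0.50; 4 and 0 rescaled). Serpinb9, the inhibitor of granzyme B, stood at 6.94 and 6.38 TPM in saline, 13.9 and 12.7 in LPS, 33 and 37 in IFNb, and 31.3 and 39.7 in LPS+IFNb. Its rise with IFNb was 2.23 ± 0.14 (limma adjusted p = 5.94e-05), and the difference in LPS+IFNb against IFNb was within its error (0.01 ± 0.14, limma adjusted p = 0.958). Serpina3g, an inhibitor of cathepsins, rose from 3.43 to 302 TPM with IFNb (6.06 ± 0.37, limma adjusted p = 4.63e-05) and to 24.3 TPM with LPS (2.46 ± 0.37, limma adjusted p = 0.00197). Serpinb6a was the gene of the list that fell, from 590 to 258 TPM with IFNb (-1.19 ± 0.08, limma adjusted p = 7.81e-05). Comparing LPS+IFNb with LPS, 3 rose and 1 fell (median 0.49; 4 and 1 rescaled), and against IFNb none rose and 1 fell (median 0.10; 1 and 0 rescaled).

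**Figure D3:**
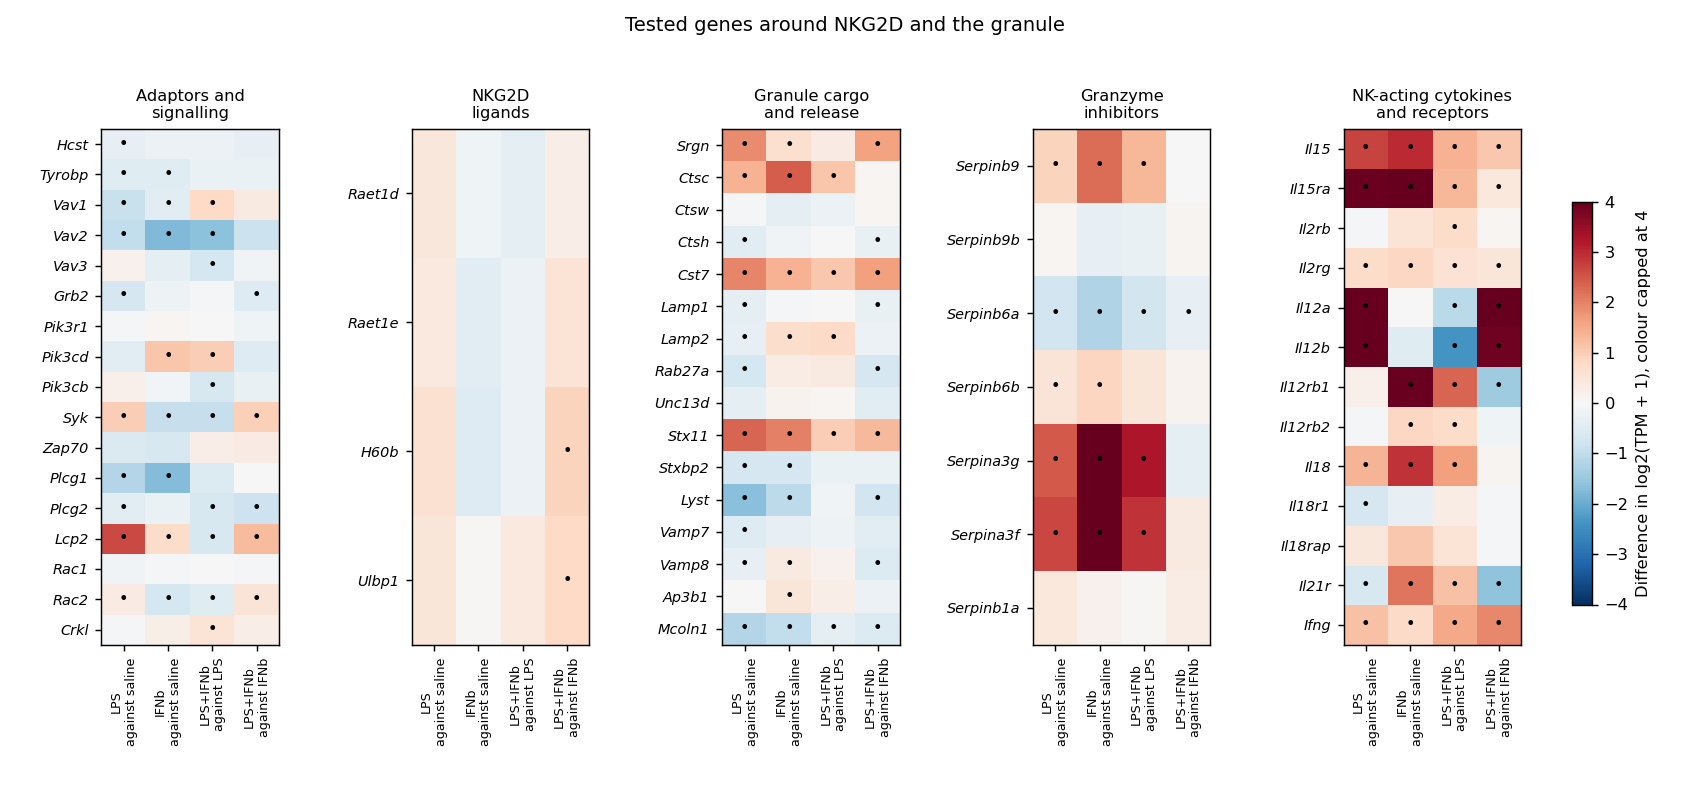
Difference in log2(TPM + 1) (colour, capped at 4 in either direction) of the tested genes of 5 lists in 4 comparisons. A dot marks an adjusted p under 0.05 in limma as deposited. Serpina3g (6.06 with IFNb) and Il15ra (4.86) reach the cap, while Hcst and Tyrobp stay pale in every column.

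Ncr1 and Cd3e did not follow Klrk1. Ncr1 (chr7:4337724-4345164, plus strand) encodes NKp46, a receptor that defines NK cells in mice. It stood at 0.616 and 0.313 TPM in saline, 0.767 and 0.791 in LPS, 0.343 and 0.695 in IFNb, and 0.39 and 0.494 in LPS+IFNb. Every library was under 1 TPM, and IFNb, saline and LPS+IFNb overlapped one another. The highest group was LPS, in which Klrk1 and Gzma were low.

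The ratio of Klrk1 to Ncr1 TPM was 2.94 and 10.7 in saline, 8.23 and 5.82 in LPS, 232 and 142 in IFNb, and 146 and 140 in LPS+IFNb. The ratio of Gzma to Ncr1 was 2.15 to 5.04 in the 4 libraries without IFNb and 11.8 to 20.1 in the 4 with it. Both ratios were thus higher in every library with IFNb than in any without it. Ncr1 is so low that these ratios are imprecise by an unknown amount. In bulk libraries fewer cells of a type and less RNA per cell cannot be told apart.

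Cd3e (chr9:44998740-45009627, minus strand), the epsilon chain of the T cell receptor complex, was lower in every treated group than in saline. It stood at 2.73 and 2.36 TPM in saline, 1.6 and 1.98 in LPS, 1.44 and 1.55 in IFNb, and 1.19 and 1.28 in LPS+IFNb. Saline was highest and LPS+IFNb lowest, with no overlap between groups. The difference from saline was -0.51 ± 0.16 with IFNb and -0.34 ± 0.16 with LPS, and after rescaling -0.24 and -0.03. For LPS+IFNb against IFNb the sign turned with rescaling, from -0.16 to 0.03. Its partner Cd3d, 11.4 kb away, stood at 2.23 and 2.47 TPM in saline and 0.995 and 2.32 TPM in IFNb. The ratio of Klrk1 to Cd3e was at most 3.93 without IFNb and at least 48.1 with it. An annotated antisense gene overlaps Cd3e, and whether strand was used in counting is not given in the sources used here.

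Nkg7 (chr7:43437073-43438249, plus strand) is carried by cytotoxic granules of both NK and T cells. It stood at 2.28 and 1.46 TPM in saline, 1.85 and 1.03 in LPS, 2.52 and 4.15 in IFNb, and 2.32 and 2.87 in LPS+IFNb. Saline overlapped LPS, and IFNb overlapped LPS+IFNb. The difference in IFNb against saline was 0.58 ± 0.28 and that in LPS+IFNb against LPS was 0.58 ± 0.28. LPS against saline was -0.24 ± 0.28 as deposited and 0.04 after rescaling, so its sign depends on the scaling. The mean of Nkg7 with IFNb was therefore 1.78-fold its saline level, against 4.78-fold for Gzma and 34.5-fold for Klrk1.

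Of 18 further NK cell genes 11 were tested, and 2 rose and 2 fell with IFNb (median -0.17; 3 and 0 rescaled). The rises were Ccl5 and Xcl1, chemokines, and the falls were Klrd1 and Cd7. After rescaling Cd7 was under the filter and was not tested again. With LPS 2 rose and 2 fell (median -0.33; 2 and 1 rescaled), in LPS+IFNb against LPS 2 rose and none fell (median -0.19), and against IFNb 2 rose and 1 fell (median -0.04; 2 and 0 rescaled). Leaving out Ccl5, which macrophages make, the summed level of the other 17 genes was 31.8 and 32.2 TPM in saline, 26.6 and 19.1 in LPS, 26.6 and 38.4 in IFNb, and 25.6 and 43 in LPS+IFNb. That sum overlapped between saline and both groups with IFNb. No gene of the list was at 0 in all libraries, and 6 of the 17 stayed under 1 TPM in all of them.

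Among the defining NK genes, Klrb1c (NK1.1) was at 1.03 and 0.742 TPM in saline and at 0.174 to 0.537 TPM in all treated libraries. Klrb1c was under the filter on low values and was not tested. Eomes, a transcription factor of NK cells, was at 0.246 and 0.374 TPM in saline and at 0.493 and 0.649 TPM in IFNb, under the filter. Il2rb, the receptor chain shared by IL-2 and IL-15, went from 1.54 to 2.76 TPM with IFNb (0.56 ± 0.20, limma adjusted p = 0.0537; 0.78, adjusted p = 0.0215 rescaled). It rose in LPS+IFNb against LPS, from 1.38 to 2.93 TPM (0.72 ± 0.20, limma adjusted p = 0.0319). Xcl1, the chemokine lymphotactin, rose from 0.799 to 8 TPM with IFNb (2.32 ± 0.29, limma adjusted p = 0.00114) and from 5.74 to 16.9 TPM in LPS+IFNb against LPS (1.36 ± 0.29, limma adjusted p = 0.0137). As deposited, some NK genes were thus higher with IFNb and others lower. After rescaling, 3 genes of the list were called higher with IFNb and none lower. Klrd1 stayed lower there without a call (-1.04, limma adjusted p = 0.0827). How far NK cell RNA enters the levels of Klrk1 and the granzymes was not tested.

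Of 23 matched T cell genes 20 were tested, and none rose and 6 fell with IFNb and with LPS (medians -0.45 and -0.47; rescaled, 1 rose and 5 fell with IFNb, and 1 rose and 1 fell with LPS). Cd28, the costimulatory receptor, went from 13.7 to 2.72 TPM with IFNb (-1.99 ± 0.16, limma adjusted p = 0.00018). Thy1, a surface protein of T cells, fell from 3.15 to 0.553 TPM (-1.42 ± 0.22, limma adjusted p = 0.00234) and Tcf7, a T cell transcription factor, from 3.99 to 1.38 TPM (-1.07 ± 0.20, limma adjusted p = 0.00481). Trac, the constant segment of the receptor alpha chain, was at 7.82 and 7.26 TPM in saline and at 0.991 and 7.21 TPM in IFNb (-1.08 ± 0.63, limma adjusted p = 0.193). Cd3g was at 11 and 5.95 TPM in saline and at 1.02 and 4.53 TPM in IFNb (-1.45 ± 0.57, limma adjusted p = 0.0724). Cd8a was at 1.53 and 1.45 TPM in saline and 0.549 and 1.09 TPM in IFNb (-0.47 ± 0.24, limma adjusted p = 0.145). The summed T cell level, most of it Il7r, was 596 and 505 TPM in saline, 327 and 269 in LPS, 449 and 512 in IFNb, and 284 and 339 in LPS+IFNb. As deposited, the only T cell gene called higher in any of the comparisons was Ccr7, in both of those with LPS+IFNb (1.04 ± 0.17 against LPS, limma adjusted p = 0.00522, and 0.83 ± 0.17 against IFNb, limma adjusted p = 0.0114).

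**Figure D4:**
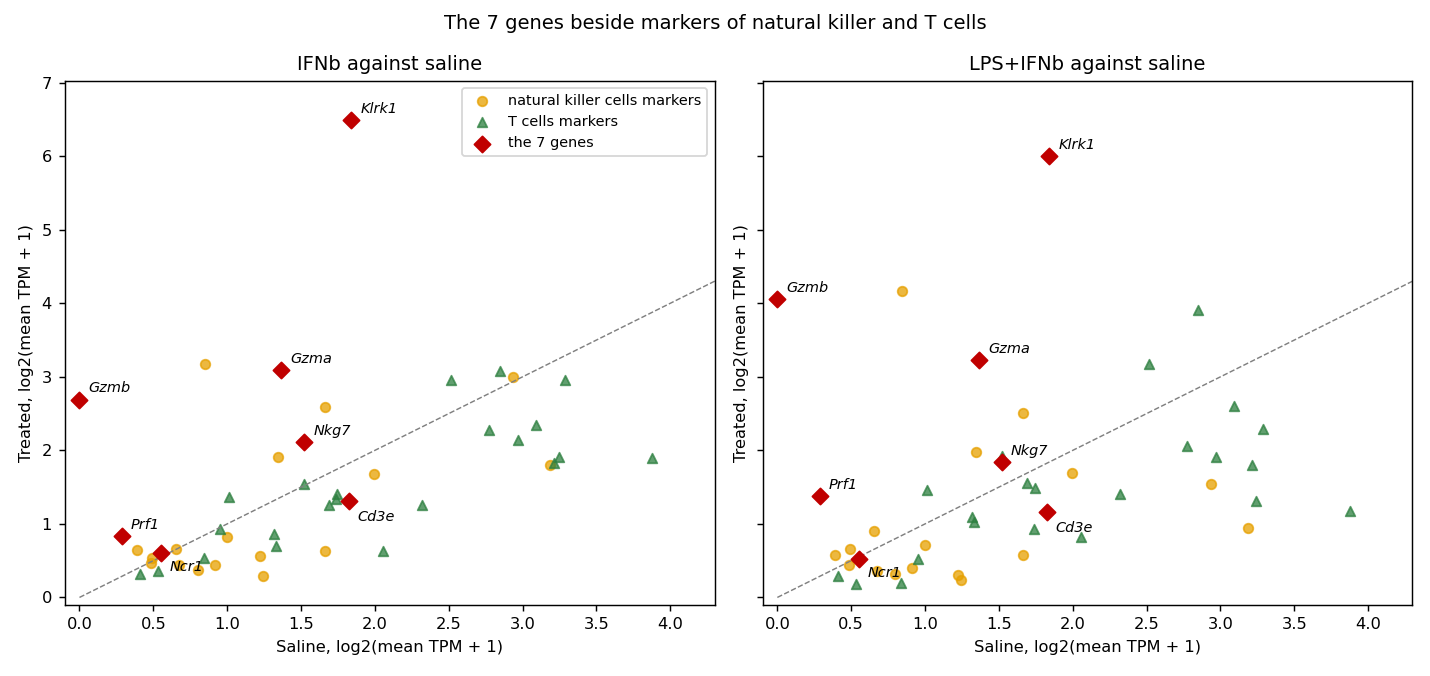
Mean level in saline (horizontal axes) against the mean level with IFNb (left) or LPS+IFNb (right), both as log2(mean TPM + 1). Red diamonds are the 7 genes, circles are NK cell markers without Ccl5 and triangles are T cell markers without Il7r, and the dashed line marks equal levels. Klrk1 (88.9 against 2.58 TPM with IFNb) lies above every marker drawn, Ncr1 (0.519 against 0.464 TPM) lies near the line and Cd3e (1.49 against 2.54 TPM) below it.

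Mast cells also make granule proteases, and their markers were measured too. Of 9 mast cell genes 8 were tested, and with IFNb Hdc rose and Kit fell, while Hdc alone was called with LPS (rescaled, 1 higher and 0 lower in each). The Kit call ended with rescaling (-0.75, adjusted p = 0.0903). Mcpt4, a mast cell chymase, was at 6.64 and 7.74 TPM in saline and 7.21 and 4.81 TPM in IFNb (limma adjusted p = 0.59). The summed mast cell level was 59.7 and 67.9 TPM in saline, 63.2 and 91 in LPS, 73.3 and 57.5 in IFNb, and 99.1 and 65.7 in LPS+IFNb, so the groups overlapped. Of 11 tested B cell genes none rose and 4 fell with IFNb (median -0.46; 1 and 0 rescaled), and of 5 tested neutrophil genes none rose and 1 fell (median -0.38; 0 and 0 rescaled).

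The dendritic cell list was the marker list whose summed level went with Klrk1. Of 9 genes, all tested, 4 rose and 1 fell with IFNb (median -0.12; 4 and 0 rescaled). The sum was 124 and 113 TPM in saline, 267 and 287 in LPS, 1057 and 1037 in IFNb, and 942 and 905 in LPS+IFNb, and the groups rank as for Klrk1. Most of it was Bst2, a marker of plasmacytoid dendritic cells that interferon also induces in other cells, which rose from 90.6 to 944 TPM with IFNb (3.37 ± 0.10, limma adjusted p = 1.85e-06). Tcf4, another gene of this list, rose from 20.8 to 92.8 TPM (2.11 ± 0.15, limma adjusted p = 8.97e-05), and rescaled by 2.49 (limma adjusted p = 8.55e-06). Xcr1 and Clec9a, receptors of cross-presenting dendritic cells, rose from 0.166 to 1.07 TPM (limma adjusted p = 0.0144) and from 1.06 to 6.29 TPM (limma adjusted p = 0.0104). Flt3, a receptor of dendritic cells and their precursors, went from 1.18 to 0.146 TPM (-0.92 ± 0.19, limma adjusted p = 0.00743). After rescaling Flt3 was under the filter on low values and was not tested again. Siglech, which defines plasmacytoid cells, was at 1.31 and 1.66 TPM in saline and 0.731 and 0.993 TPM in IFNb (rescaled -0.19, limma adjusted p = 0.603). The part of dendritic cells in the levels of Klrk1 was not tested.

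Klrk1 lies in the NK gene complex, a run of lectin-like receptor genes that also holds myeloid receptors. Of 34 matched lectin receptor and neighbouring genes 18 were tested, and 4 rose and 7 fell with IFNb (median -0.56; 4 and 2 rescaled), 4 rose and 5 fell with LPS (median -0.28; 4 and 2 rescaled). Its immediate neighbour Klrd1, 11.5 kb away, encodes CD94, a partner of NKG2 receptors on NK cells. Klrd1 stood at 7.94 and 8.26 TPM in saline, 5.05 and 1.82 in LPS, 2.33 and 2.65 in IFNb, and 1.32 and 0.525 in LPS+IFNb. It fell with IFNb by -1.38 ± 0.37 (limma adjusted p = 0.0206), and rescaled by -1.04 (adjusted p = 0.0827), so the call depends on the scaling while the sign does not. On the other side Klrc3, 15.2 kb away, stayed at or below 0.593 TPM.

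The widest differences of the complex in both treatments belonged to Cd69, an early activation marker, whose start lies -348.4 kb from that of Klrk1. Cd69 stood at 1.76 and 1.45 TPM in saline, 96.9 and 71.1 in LPS, 589 and 565 in IFNb, and 322 and 347 in LPS+IFNb. It rose by 7.79 ± 0.15 with IFNb (limma adjusted p = 3.96e-07) and by 5.01 ± 0.15 with LPS (limma adjusted p = 2.67e-06), and fell in LPS+IFNb against IFNb by -0.79 ± 0.15 (limma adjusted p = 0.00917), a call that rescaling ended (-0.46, adjusted p = 0.107). By mean TPM as deposited its groups rank as those of Klrk1 do. Olr1, the lectin-like receptor of oxidised lipoprotein, rose with LPS from 7.71 to 234 TPM (4.75 ± 0.23, limma adjusted p = 2.12e-05) and was at 4.48 TPM in IFNb. Clec2i and Gabarapl1 fell with IFNb, by -2.20 ± 0.23 (limma adjusted p = 0.000493) and -1.95 ± 0.09 (limma adjusted p = 1.09e-05). With LPS after IFNb 2 genes rose and 3 fell against LPS (median -0.06; 2 and 2 rescaled), and against IFNb 2 rose and 4 fell (median -0.26; 2 and 0 rescaled). Klra genes are near copies of one another and their values are uncertain.

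**Figure D5:**
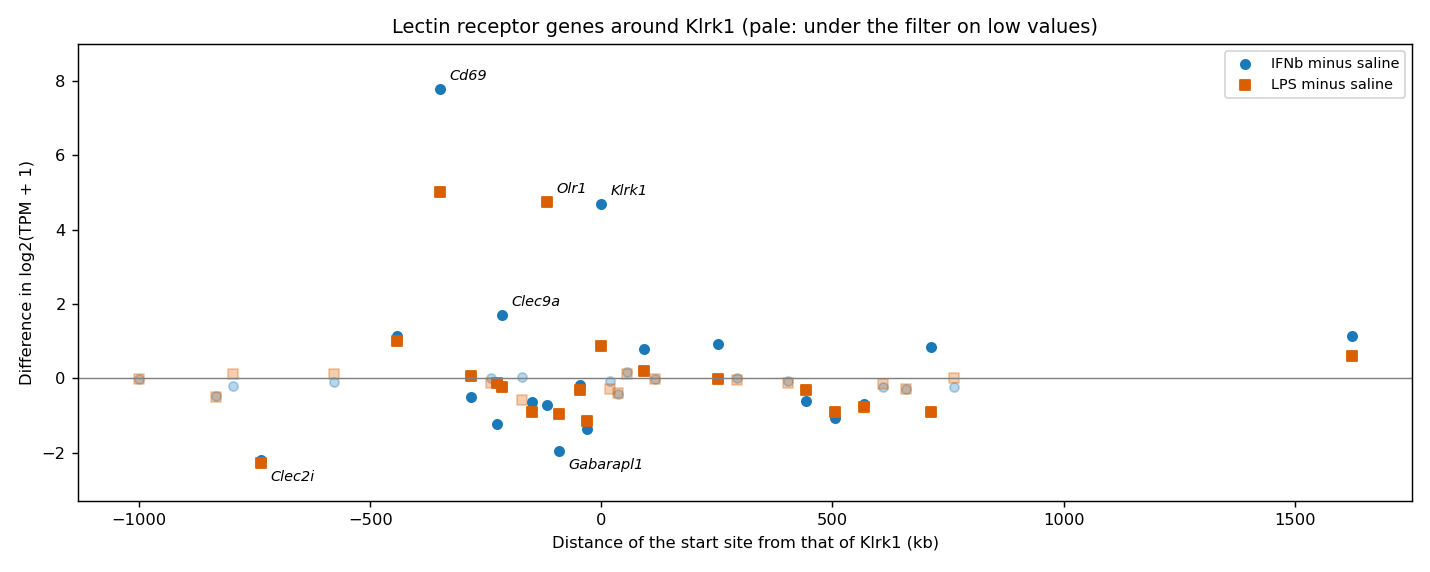
Difference in log2(TPM + 1) from saline with IFNb (blue circles) and LPS (orange squares) for 34 genes of the complex, Klrk1 included, by the distance in kb of each start site from that of Klrk1. Pale symbols are genes under the filter on low values, and Klrg1, far to the left, is not drawn. Cd69 (7.79) and Klrk1 (4.68) stand apart with IFNb, and the 3 nearest genes drawn on either side lie at or below 0.16.

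Cytokines that drive NK cells to make granule proteins, and their receptors, were mostly higher in treated groups. Of 13, all tested, 8 rose and none fell with IFNb (median 0.83; 9 and 0 rescaled), and 7 rose and 2 fell with LPS (median 0.73; 7 and 0 rescaled). Il15, which induces Klrk1 and granzymes in lymphocytes, stood at 10.1 and 10.6 TPM in saline, 69.7 and 74.2 in LPS, 90.6 and 86.7 in IFNb, and 198 and 181 in LPS+IFNb. It rose by 2.69 ± 0.09 with LPS (limma adjusted p = 3.31e-06) and by 1.09 ± 0.09 in LPS+IFNb against IFNb (limma adjusted p = 0.00041), in 2 of 2 libraries each time. The groups rank for Il15 as they do for Gzmb and not as for Klrk1.

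Il15ra, which presents IL-15 to neighbouring cells, rose with IFNb from 7.66 to 250 TPM (4.86 ± 0.14, limma adjusted p = 1.47e-06). Il18 rose from 14.1 to 110 TPM (2.89 ± 0.19, limma adjusted p = 6.72e-05) and Il12rb1, a chain of the IL-12 receptor, by 3.96 ± 0.28 (limma adjusted p = 9.49e-05). Il12b, the shared subunit of IL-12 and IL-23, rose with LPS from 0.529 to 92.4 TPM (5.81 ± 0.64, limma adjusted p = 0.00058) and was lower in LPS+IFNb, at 18.6 TPM (-2.40 ± 0.64 against LPS, limma adjusted p = 0.0284). Ifng, made mainly by NK and T cells, rose in all 4 comparisons and was at 5.41 and 6.62 TPM in LPS+IFNb, against 0.126 and 0.0597 TPM in saline. Of the 13, 9 rose and 2 fell in LPS+IFNb against LPS (median 0.74; 9 and 1 rescaled), and against IFNb 6 rose and 2 fell (median 0.11; 6 and 2 rescaled). As a reference for the treatment itself, all 10 interferon-induced genes listed for that purpose rose with IFNb and with LPS, Isg15 by 7.50 ± 0.20 (limma adjusted p = 1.11e-06) and 6.66 ± 0.20 (limma adjusted p = 2.27e-06). In LPS, where this set rose, Klrk1 (5.46 TPM) and Gzma (1.76 TPM) stayed below their means with IFNb (88.9 and 7.53 TPM).

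The genes whose profiles lay nearest to a member were found by the root mean square distance of centred log2(TPM + 1) over the 8 libraries, for the 4 members whose group means spanned at least 1. Only tested protein-coding genes were ranked. Predicted genes, pseudogenes, genes with clone names and immunoglobulin or T cell receptor segments were left out. Nearest to Klrk1 were Gnb4 (0.230), Apol9b (0.243), Tlr3 (0.279), Tmem171 (0.310), Pou3f1 (0.326) and Slco3a1 (0.396). Tlr3, the receptor of double-stranded RNA, had means of 3.6 TPM in saline, 10.1 in LPS, 147 in IFNb and 99.9 in LPS+IFNb. Nearest to Gzma were Esr1 (0.140), Slc4a11 (0.160), Csrp1 (0.164), Atp11b (0.165), Rin2 (0.168) and Tmem173 (0.178), the last encoding the adaptor STING, at 13.5, 12.6, 52.7 and 44.5 TPM in the same order. Nearest to Gzmb were Slc28a2 (0.274), Cnn3 (0.350), Cd86 (0.400), Atp10a (0.459), Aftph (0.463) and Tagap (0.464). Nearest to Prf1 were Ccne1 (0.180), Rnf4 (0.194), Pdcd10 (0.194), Gfpt1 (0.196), Nup98 (0.208) and Pi4k2b (0.214), at distances that its small range keeps short. No member was among the nearest of another.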

How the data were processed

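Each of the 8 libraries came as 1 table of TPM values per Ensembl transcript that the authors deposited. In TPM, reads are corrected for transcript length and every library has an equal sum. Kallisto and mm10 are named in the submitters' processing notes; its version, transcript set and strand setting are not given in the sources read here. Of 88198 transcripts 86119 were matched to GENCODE M21 (GRCm38), and TPM was summed per gene. The 2079 unmatched transcripts held 1.01% to 1.95% of TPM. Genes reaching 1 TPM in 2 or more libraries were fitted with limma 3.58.1 (limma-trend, R 4.3.3) on log2(TPM + 1), with 1 mean per group, and with 2.54 prior and 4 residual degrees of freedom. All p-values are two-sided, Benjamini-Hochberg adjusted over all tested genes. The model was run on simulated data with independent normal noise. Such data cannot show how it handles scaling, low values or technical replicates. Differences are in log2(TPM + 1), which understates those of low genes, and folds are ratios of mean TPM. A gene at 0 may be a failed assignment of reads.

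The members and gene lists were chosen with earlier results of these data known. From each list the genes named were those called, in order of adjusted p, up to 4 in each direction and here trimmed to examples, with 15 further genes whatever their p. Some others (among them Il12rb1, Ifng, Raet1d, Raet1e, Gata6, Timd4 and Alox15) were named after their values were seen. Promoter windows are RefSeq sequences, found for all 7 genes. Alternatives were median-ratio (called rescaling here) and upper-quartile scaling, a pseudocount of 0.1, other filters, a fit to 2 groups, the replicate number as a block and each library left out.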

Additional observations from a re-analysis of the deposited data

Results flagged for a closer look

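As deposited, Klrk1 differed in opposite directions with LPS depending on whether IFNb came first. Without IFNb it was higher in LPS than in saline by 0.87 in log2(TPM + 1), with both LPS libraries above both saline libraries. After IFNb it stood at -0.48 in LPS+IFNb against IFNb, with both LPS+IFNb libraries below both IFNb libraries. What drew attention to it is that all libraries of one pair of groups moved one way and all of the other pair the opposite way. The difference between these effects was not tested, since the gene was chosen with its values known. After rescaling by median ratio the values were 1.20 and -0.16. The latter was smaller than the standard error as deposited (0.25), and on that scale the LPS+IFNb and IFNb libraries overlapped. The LPS+IFNb libraries were taken later after IFNb than the IFNb libraries, so time since IFNb and LPS cannot be told apart there.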

How the results depend on the processing

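Of 224 differences of the members under alternatives, 180 stayed within the spread of their libraries and 44 moved. None that the libraries separated changed sign on another scale except Cd3e in LPS+IFNb against IFNb. With a pseudocount of 0.1 the difference in IFNb against saline was 5.11 for Klrk1, 2.18 for Gzma and 5.78 for Gzmb, and that in LPS against saline was 4.10 for Gzmb. Median-ratio and upper-quartile scaling gave Gzma 0.37 and 0.34 in LPS against saline and 1.94 and 1.93 in IFNb against saline. Leaving out 1 library at a time, Gzmb ranged from 1.13 to 1.66 in LPS against saline and from 2.50 to 2.86 in IFNb against saline.

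Of 120 counts of called pathway genes (75 tested), 103 stayed within 1.5 times the reported count and 17 moved. The number lower in LPS against saline was 24 as reported, 14 in a fit to those 2 groups, 6 and 7 with median-ratio and upper-quartile scaling, and 13 to 21 with 1 library left out, the lowest without LPS replicate 2. The number lower in IFNb against saline was 17, and 7 and 8 with these scalings. For LPS+IFNb against LPS it was 14, then 7 and 8, and 6 to 14 with 1 library left out, the lowest without LPS+IFNb replicate 1, followed by 7 without LPS replicate 1. For LPS+IFNb against IFNb it was 15, then 3 and 3, and 5 to 19 with 1 library left out (8 and 5 without IFNb replicate 1 or 2, 7 and 9 without LPS+IFNb replicate 1 or 2), and the number higher was 16 and ranged from 10, without IFNb replicate 2, to 14. Median-ratio scaling raised the median tested gene in each comparison, by 0.20 to 0.40. It did not raise every gene: Gzmb in IFNb against saline was 2.68 as deposited and 2.66 on that scale. For the moves under other alternatives the cause was not tested.

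The replicate number as a block left the difference of Klrk1 in IFNb against saline at 4.68 and gave 27 higher and 17 lower pathway genes there. The deviations of libraries with the same number correlated at -0.156 to 0.141 across pairs of groups, so no strong shared deviation was seen. Whether libraries with the same number were handled together cannot be told from this. Depth is unknown, and values under 1 TPM, such as those of Prf1 and Ncr1, have the least support.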
